A study of Mus musculus with 6 samples.

Results

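NRF2, encoded by Nfe2l2, and the genes that regulate or partner it were examined in HT22 cells, an immortalised mouse hippocampal line used as a model of neurons. The group was defined by gene name and role, with no threshold on the measured values, although earlier results of these data were known when it was chosen. It holds 8 genes of the 16472 listed: the NRF factors Nfe2l2 and Nfe2l1, the ligase genes Keap1 and Cul3, the repressor gene Bach1, and the small MAF genes Mafg, Maff and Mafk. All 8 were found in the authors' deposited table, and all 8 had an adjusted p.

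The cultures received either AA147 or its DMSO vehicle for 16 h, with 3 libraries in each group and 6 in all. AA147 is a compound that activates the stress regulators ATF6 and NRF2, and its dose is labelled as 10 mM, a value that is high for a cell treatment and whose unit could not be checked. Both groups shared the line, the serum-containing medium and the duration, and mRNA was sequenced without strand information. The labels do not say whether the 3 libraries of a group came from separate cultures, so the p-values may measure technical spread.

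The values come from a single comparison made by the authors with DESeq2. The authors' deposited table gives, for each gene, 1 mean normalized count over the libraries, 1 log2 fold change with its standard error (SE), and a p with its adjusted p. No value for a single library was analysed here, so the spread between replicates is known only through the SE. The numerator of the fold change is not named in the header. Positive values are read as higher with AA147, and every direction below depends on that reading. A gene is called when its adjusted p is under 0.05, by DESeq2's Wald test with Benjamini-Hochberg adjustment.

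NRF2 is a basic leucine zipper transcription factor of the cap'n'collar (CNC) family. KEAP1 binds it in the cytoplasm and brings it to the ubiquitin ligase built on CUL3, so NRF2 protein is short-lived in unstressed cells. Oxidants and electrophiles modify cysteines of KEAP1, NRF2 then accumulates, enters the nucleus, pairs with a small MAF protein and binds antioxidant response elements (AREs) near genes of glutathione, NADPH and iron metabolism. BACH1 pairs with the same small MAF proteins and represses many of the same genes until heme releases it. Because NRF2 activity is controlled largely through the protein, transcript levels of these genes are not a measure of that activity.

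The sequences below show where the core of the ARE occurs just upstream of the members. NRF2 and small MAF genes have themselves been described as carrying AREs. Whether a match below is one of the described elements was not checked, and elements outside the windows were not searched. The RefSeq promoter table for assembly GRCm38.p6 gave 14 windows for the 8 members, each from 250 bases before to 50 after an annotated start. The core was searched as TGACNNNGC on both strands. It was found in 1 window each of Nfe2l2, Mafg, Maff and Mafk. The windows of Nfe2l1, Keap1, Cul3 and Bach1 did not hold these letters. Only bases before the start are printed, 5′ to 3′ on the gene's strand, with the match in capitals. The Nfe2l2 run is the 250 bases at chr2:75704664-75704913 on the minus strand. The others are the match with up to 20 bases on either side, for Mafg at chr11:120633741-120633789 (minus strand), Maff at chr15:79346489-79346537 (plus strand) and Mafk at chr5:139791503-139791535 (plus strand).
Nfe2l2: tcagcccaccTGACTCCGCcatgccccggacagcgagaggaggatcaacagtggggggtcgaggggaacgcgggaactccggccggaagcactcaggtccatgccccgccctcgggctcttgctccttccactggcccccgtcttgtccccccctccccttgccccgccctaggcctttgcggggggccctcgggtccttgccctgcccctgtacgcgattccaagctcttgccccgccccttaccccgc
Mafg: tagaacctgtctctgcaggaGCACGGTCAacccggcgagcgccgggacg
Maff: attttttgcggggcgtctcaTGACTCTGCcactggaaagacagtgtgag
Mafk: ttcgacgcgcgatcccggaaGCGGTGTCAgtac

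In Nfe2l2 and Maff the match reads along the gene's strand, and in Mafg and Mafk it lies on the other strand. It begins 240 bases before the start in Nfe2l2, 222 in Mafg, 112 in Maff and 13 in Mafk. Of all 32851 windows in the table, 12.4% held the same letters, and 14% of all genes had at least 1 such window. Maff has 3 windows, of which 1 held the core, and Nfe2l1 has 5, of which 0 did. The longer MAF recognition element, also searched on both strands, occurred in 0 of the 14 windows and in 0.155% of all windows. Every match to it would also match the core on the opposite strand. A match is a run of letters, and no binding was measured.

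Of the 8 members, 1 passed the test. In the authors' deposited table Nfe2l2 was called lower with AA147, while the other 7 were not called in either direction. Over all 13597 genes with an adjusted p, 20.2% were called, 11.1% lower and 9.05% higher. The members' share, 1 of 8, lies near that background and is no result about the group. At an unadjusted p under 0.05 stood 2 members, Nfe2l2 and Mafk, beside 30.6% of all genes tested.

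**Figure D1:**
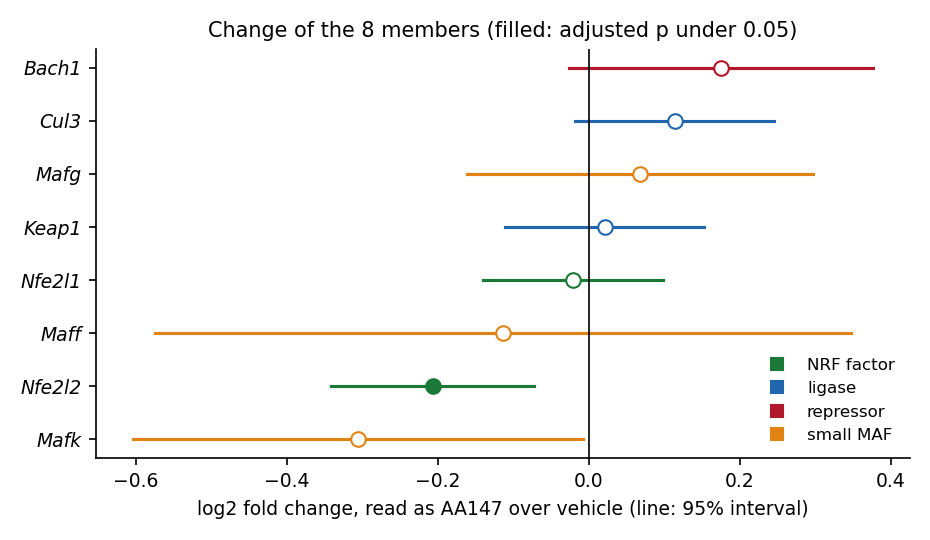
Log2 fold change of each member in the authors' deposited table, read as AA147 over vehicle, with its 95% interval from the deposited SE; colours give the role, and a filled point marks an adjusted p under 0.05. Nfe2l2 at -0.21 is the only filled point, and Mafk at -0.31 is the lowest value but has a wider interval.

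Nfe2l2, the gene for NRF2, fell in the authors' deposited table by 0.21 on the log2 scale (SE 0.069, adjusted p 0.0174). In percent, the transcript fell by 13.3%, with a 95% interval from -21.1% to -4.86%. Its mean was 4042 normalized counts, and taken at face value the fold change implies an average of 4331 with vehicle and 3754 with AA147. The change was small beside the other called genes. Of the 2741 genes called in the authors' deposited table, 90.8% had a larger absolute fold change than Nfe2l2.

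The SE of a gene set how small an estimate could be called. The smallest absolute change that would have been called at the SE of Nfe2l2 was 0.18, which the measured value passed by a narrow margin. The call ended at an adjusted p under 0.01 and with Bonferroni or Benjamini-Yekutieli adjustment, and it held with centring and with the length, GC content and expression trend subtracted (adjusted p 0.0059). Of the 2947 genes with a mean within 2-fold of that of Nfe2l2, 28.3% were called in the authors' deposited table. The SE of Nfe2l2 was 0.988 times the median of those genes, so its precision was that of a typical gene of its level. A noncoding gene on the opposite strand, E030042O20Rik, overlaps 5.09% of the exon bases of Nfe2l2. Its mean in the authors' deposited table was 41.8, against 4042 for Nfe2l2, and it was not called (-0.41, SE 0.34, adjusted p 0.449).

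Nfe2l1 encodes NRF1, the CNC relative that is held in the endoplasmic reticulum membrane and, once released, drives proteasome genes. It was the member with the highest mean, 6623 normalized counts in the authors' deposited table, a mean above that of most listed genes. It differed by -0.02 (SE 0.061, adjusted p 0.866). The 95% interval ran from -0.14 to 0.10, or from -9.29% to 7.01%. This is the tightest interval of the 8. Taken at face value, it implies 6673 normalized counts with vehicle and 6574 with AA147.

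The fold change of Nfe2l2 lay below that of Nfe2l1 by 0.19, with a 95% interval of the difference from -0.37 to -0.0053. These intervals treat the errors of the genes as independent, which one set of libraries does not guarantee. The interval for this pair reached almost to 0. Among all 28 pairs of members, 8 had an interval that excluded 0, and 5 of these included Nfe2l2. With the intervals widened for 28 pairs by Bonferroni's rule, 1 remained, that of Nfe2l2 against Cul3 at -0.32 (95% interval before widening from -0.51 to -0.13). With the length, GC content and expression trend subtracted, Nfe2l2 stood at -0.23 and Cul3 at 0.05, closer together than as deposited. The widened interval was not computed for those values, so this pair is not shown to hold under that alternative. Ordered by fold change, none of the 7 pairs of neighbouring members had an interval that excluded 0.

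The ligase genes did not pass the test. In the authors' deposited table Keap1, the sensor and substrate adaptor, averaged 2977 normalized counts and differed by 0.02 (SE 0.067, adjusted p 0.884). Its 95% interval ran from -7.37% to 11.1%, and the implied averages were 2956 with vehicle and 2999 with AA147. For Cul3, the cullin scaffold of that ligase and of many others, the authors' deposited table gave 5339 normalized counts and a difference of 0.11 (SE 0.067, adjusted p 0.244). Its interval from -1.22% to 18.5% covers no change and also a rise of the size by which Nfe2l2 fell. A change of 0.17 would have been called for either gene.

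Without strand information, reads of Keap1 and of genes on the opposite strand cannot be told apart. In the GENCODE annotation the noncoding genes Gm68155 and Gm16754 overlap 14.9% and 10.9% of the exon bases of Keap1, and they were not analysed here. Exons of Cul3, Bach1 and Nfe2l1 overlapped no other gene in that annotation.

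The authors' deposited table listed Bach1, the repressor that competes for AREs, with 730 normalized counts and a difference of 0.17 (SE 0.10, adjusted p 0.241). It was the highest fold change of the 8 and was not called. The 95% interval reached from -1.81% to 29.8%, and the implied averages were 686 with vehicle and 774 with AA147. At this SE only an estimate of at least 0.26 would have been called, which is more than the change measured in Nfe2l2. Nfe2l2 lay below Bach1 by 0.38, with a 95% interval of the difference from -0.62 to -0.14 before widening for the number of pairs.

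The small MAF genes encode short bZIP proteins that have no activation domain of their own and act as obligate partners of CNC and BACH proteins. Among them Mafg averaged 599 normalized counts in the authors' deposited table, and differed by 0.07 (SE 0.12, adjusted p 0.757). Maff had the lowest mean of the 8, at 112, and differed by -0.11 (SE 0.24, adjusted p 0.804). Their implied averages were 585 with vehicle and 613 with AA147 for Mafg, and 116 and 107 for Maff. The interval of Maff, from -32.8% to 27.2%, was the widest, and only a change of at least 0.61 would have been called for it. Within that interval, changes of Maff in either direction were not told apart from none.

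Mafk had the lowest fold change of the 8, -0.31 (SE 0.15), at a mean of 275 normalized counts in the authors' deposited table. Its unadjusted p was 0.0442 and its adjusted p 0.149, so it was not called. The 95% interval from -34.2% to -0.553% stopped just short of 0 before any adjustment for the number of genes. The implied averages were 304 with vehicle and 246 with AA147. In the GENCODE annotation, 16.1% of the exon bases of Mafk lie in exons of Tmem184a on the opposite strand. In the authors' deposited table Tmem184a averaged 262 normalized counts and differed by 0.10 (SE 0.17, adjusted p 0.757), and how reads in the shared stretch were assigned is not given in the sources used here. For Mafg, the shared stretch with Sirt7 on the same strand was 1.47% of its exon bases. On the opposite strand, the noncoding genes Gm72612 and Gm17586 overlap 4.95% and 2.9% of the exon bases of Mafg. The noncoding genes Gm56727 and Gm62234 overlap 13.1% and 2.89% of those of Maff, also on the opposite strand. Apart from such overlapping genes, no transcript of another gene matched a member over 100 bases or more at 95% identity or above.

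**Figure D2:**
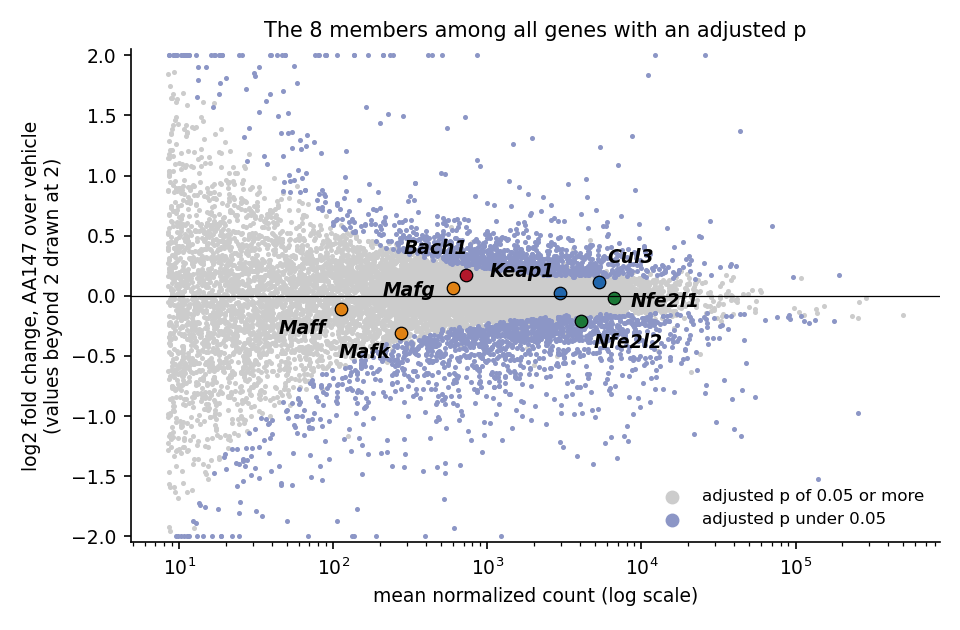
Log2 fold change against mean normalized count (log scale) for the 13597 genes that have an adjusted p, as the authors' deposited table gives them, and the 8 members labelled and genes called at an adjusted p under 0.05 in blue. Nfe2l2 sits at the inner edge of the called genes, and Maff and Mafk lie at means where only larger changes were called.

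The levels of the members were compared per length of transcript, on the scale of mean normalized count per kb of the longest GENCODE transcript. These levels pool both groups and carry no spread over libraries, so the order has no test. Nfe2l1 was highest at 1290 per kb, followed by Nfe2l2 at 1125, Cul3 at 1037 and Keap1 at 659. A clear gap followed. Bach1 stood at 123 per kb, Mafg at 72.3, Mafk at 56.1 and Maff at 50.9. Per kb, transcripts of the NRF factors, Cul3 and Keap1 were thus far more abundant than those of the small MAF partners and Bach1. The annotation used for counting is not given, so the lengths used here may differ from those counted over.

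Summed per kb, the NRF factors reached 2415 and the small MAF genes 179, a ratio of 13.5. With canonical in place of longest transcripts this ratio was 11.1. Nfe2l2 exceeded Bach1 9.12-fold and Keap1 1.71-fold per kb. The last ratio depended on the transcript chosen and was 1.21 with canonical transcripts. Within the small MAF sum, Mafg held 40.3%, Mafk 31.3% and Maff 28.4% with the longest transcripts, while Mafk led with 41.8% under canonical lengths. The order of the 3 small MAF genes is therefore not settled by these values.

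**Figure D3:**
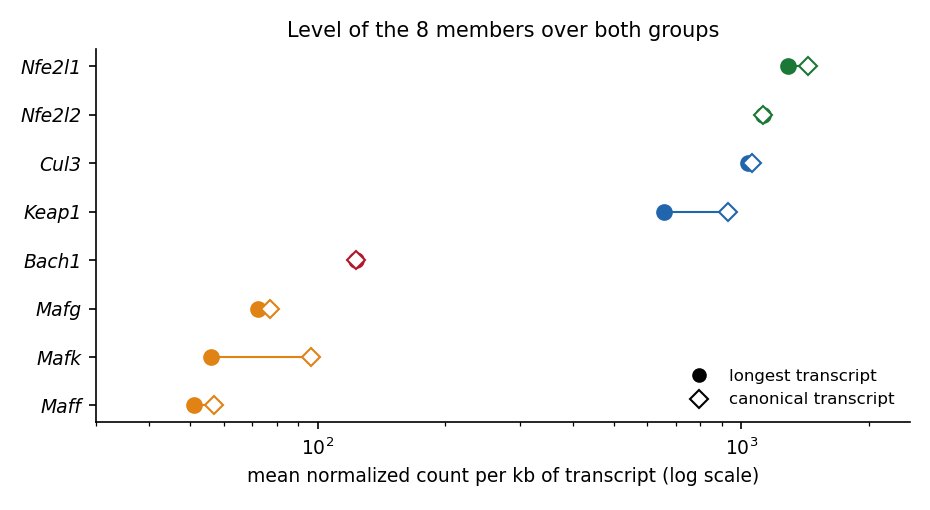
Mean normalized count per kb (log scale) for each member over both groups, with the longest transcript as circles and the canonical transcript as diamonds. The NRF factors, Cul3 and Keap1 lie between 659 and 1441 per kb, and Bach1 and the small MAF genes between 50.9 and 123.

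Called counts of the lists below stand beside 20.2% called over all genes tested, 11.1% lower and 9.05% higher. A count near that share is no result about a list. Of the further CNC, BACH and large MAF genes listed, 3 had values in the authors' deposited table, 2 of them with an adjusted p. DESeq2 called 0 of these, with 1 at an unadjusted p under 0.05. That gene was Bach2, the relative of Bach1 best known from lymphocytes, which the authors' deposited table listed at 0.44 (SE 0.19, adjusted p 0.0935) with 193 normalized counts. Mafa, a large MAF gene, stood at 0.01 (SE 0.22, adjusted p 0.989). Nfe2l3, which encodes NRF3, had a mean of 1.69 and no adjusted p in the authors' deposited table, and it is named only because it completes the 3. Nfe2, Maf and Nrl were not analysed here.

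The cullin cycle behind KEAP1 and CUL3 gave no called gene. All 8 genes for neddylation and cullin exchange had an adjusted p in the authors' deposited table. DESeq2 called 0, beside 20.2% of all genes tested, with 1 at an unadjusted p under 0.05. The median log2 fold change of the 8 was 0.05, beside 0.01 over all genes tested. Cand1, the exchange factor that recycles cullin adaptors, stood at 0.06 (SE 0.061) and Ube2m, a NEDD8-conjugating enzyme, at 0.01 (SE 0.074) in the authors' deposited table.

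Other adaptors of CUL3 moved in both directions. Of 11 with an adjusted p in the authors' deposited table, 5 were called higher and 2 lower. Among all genes tested these shares were 9.05% and 11.1%. The median of the list was 0.16. Klhl21, an adaptor used in cell division, rose by 0.54 (SE 0.075, adjusted p 1.62e-11), and Kctd13 rose by 0.47 (SE 0.13, adjusted p 0.00285). Rhobtb1 rose in the authors' deposited table by 0.34 (adjusted p 0.0270), and Rhobtb3 fell by 0.30 (adjusted p 8.65e-04). Klhl9 at -0.03 and Klhl22 at -0.14 were not called. The Keap1 value of 0.02 lay inside the range of this list, from -0.30 to 0.54.

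Among 8 genes whose proteins bind KEAP1 or NRF2, the authors' deposited table called 2 higher and 1 lower. It called 9.05% of all genes tested higher and 11.1% lower. The median of the list was -0.01. Sqstm1, which encodes p62, an autophagy receptor that competes with NRF2 for KEAP1 and is also a target of NRF2, rose by 0.45 (SE 0.055, adjusted p 1.99e-14). Cdkn1a, the cell cycle inhibitor p21 that can bind NRF2, rose in the authors' deposited table by 0.62 (SE 0.071, adjusted p 1.81e-16). Mcm3, a replication helicase subunit that also binds KEAP1, fell by 0.15 (SE 0.054, adjusted p 0.0380). Dpp3 at 0.05 and Pgam5 at -0.09 in the authors' deposited table, both KEAP1 binding proteins, were not called.

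NRF2 can also be degraded without KEAP1, through the β-TrCP ligase after phosphorylation by GSK3 and through the endoplasmic reticulum ligase HRD1. Of 9 genes of this machinery in the authors' deposited table, 1 was called higher and 1 lower, with a median of 0.02. With 20.2% of all genes tested called, this count lies near the background and is no result about the list. Btrc, which encodes β-TrCP, rose by 0.35 (SE 0.086, adjusted p 5.85e-04). Syvn1, which encodes HRD1, fell in the authors' deposited table by 0.21 (SE 0.081, adjusted p 0.0436). Ddb1 at -0.13 and Skp1a at 0.04 were not called.

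Over all genes tested, 20.2% were called and 30.6% had an unadjusted p under 0.05. Of 7 coregulators in the authors' deposited table, 2 were called higher and 0 lower, and 2 had an unadjusted p under 0.05. These were the acetyltransferase gene Crebbp at 0.30 (SE 0.081, adjusted p 0.00192) and the coactivator gene Ncoa3 at 0.25 (SE 0.084, adjusted p 0.0183). Smarca4 at -0.03 and Ep300 at 0.18 were not called in the authors' deposited table.

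NRF1 reaches the nucleus only after it is drawn out of the endoplasmic reticulum membrane, stripped of its sugars and cleaved. Of 11 genes for this processing and for NRF1 turnover, the authors' deposited table called 3 higher and 2 lower. Of all genes tested, 9.05% were called higher and 11.1% lower. The median of the list was 0.12. The p97 cofactor genes Ufd1l at 0.25 (SE 0.072, adjusted p 0.0047) and Nploc4 at 0.22 (SE 0.062, adjusted p 0.00338) were higher. Ngly1, the deglycosylating enzyme, fell in the authors' deposited table by 0.28 (SE 0.10, adjusted p 0.0342). Syvn1 and Btrc, already given, are the other 2 called genes of this list. Vcp, the p97 gene itself, stood at 0.12 (SE 0.070, adjusted p 0.236) and Hcfc1 at 0.00463 in the authors' deposited table, and neither was called.

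BACH1 protein is removed by F-box ligases, of which 2 genes were listed. Of these 1 was called, beside 20.2% of all genes tested. In the authors' deposited table Fbxl17 fell by 0.21 (SE 0.076, adjusted p 0.0308). Fbxo22 had a value of 0.17 (SE 0.082, adjusted p 0.152) and was not called.

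The NRF2 target genes were mostly called higher. Of 26 NRF2 target genes in the authors' deposited table, 19 were called higher and 2 lower, beside 9.05% and 11.1% of all genes tested. The median of the list was 0.51, beside 0.01 over all genes tested. Activation of NRF2 by AA147 is part of why positive values are read as higher with AA147, so this list gives no independent evidence of direction. Implied averages show the sizes. Cat, the peroxide-degrading enzyme catalase, rose by 0.68 (SE 0.067), from 3117 normalized counts with vehicle to 5002 with AA147, as implied by the authors' deposited table. Txnrd1, the cytosolic thioredoxin reductase, rose by 0.67 (SE 0.064). The authors' deposited table did not call Gsr at 0.15 (adjusted p 0.0998) or Txn1 at 0.15 (adjusted p 0.0526). The remaining uncalled targets had negative values. These were Slc7a11 at -0.40 (adjusted p 0.179), Osgin1 at -0.21 (adjusted p 0.243) and Sesn2 at -0.09 (adjusted p 0.467).

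The largest values of the list were those of Gsta4, Blvrb, Nqo1 and Taldo1, at 1.84, 1.09, 0.93 and 0.88 in the authors' deposited table. Set beside them, the largest absolute change of any member was 0.31, in Mafk, which was not called. The Nfe2l2 transcript itself was called in the direction opposite to 19 of the 26 targets. The 2 targets called lower were Tkt at -0.56 (SE 0.056, adjusted p 4.69e-22) and Ephx1 at -0.42 (SE 0.053, adjusted p 2.47e-13).

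The listed BACH1 target genes, most of them in heme and iron handling, were all higher among those measured. All 5 in the authors' deposited table were called higher, beside 9.05% of all genes tested, with a median of 0.58. Of these 5, 4 also belong to the NRF2 list, so they are not a separate set. The fifth, Slc48a1, a heme transporter of the endosome and lysosome, rose by 0.82 (SE 0.065, adjusted p 3.13e-34). Gclm, a subunit of the enzyme that starts glutathione synthesis, rose by 0.63, and the ferritin genes Fth1 and Ftl1 rose by 0.58 and 0.50 in the authors' deposited table. Ferritin genes have near-identical processed copies in the genome, so their single values are uncertain. Hmox1, the heme oxygenase gene that is the classical BACH1 target, rose by 0.30 (adjusted p 0.0272). Slc40a1 was not analysed here.

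Proteasome subunit genes are the classical targets of NRF1. Of all genes tested, 20.2% were called and 30.6% had an unadjusted p under 0.05. Of 32 proteasome genes in the authors' deposited table, 5 were called higher and 0 lower, beside 9.05% and 11.1% of all genes tested. The count called in either direction lies near the background and is no result about the list. An unadjusted p under 0.05 was reached by 9, and the median was 0.09. The highest were Psmd11 at 0.34, Psmc6 at 0.34, Psmb5 at 0.31 and Psmd4 at 0.23, with SEs from 0.060 to 0.077. The whole list ran from -0.07 to 0.34, and 26 of the 32 values were positive. Psmd3 at 0.06 and Psmd1 at 0.14 in the authors' deposited table were not called.

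**Figure D4:**
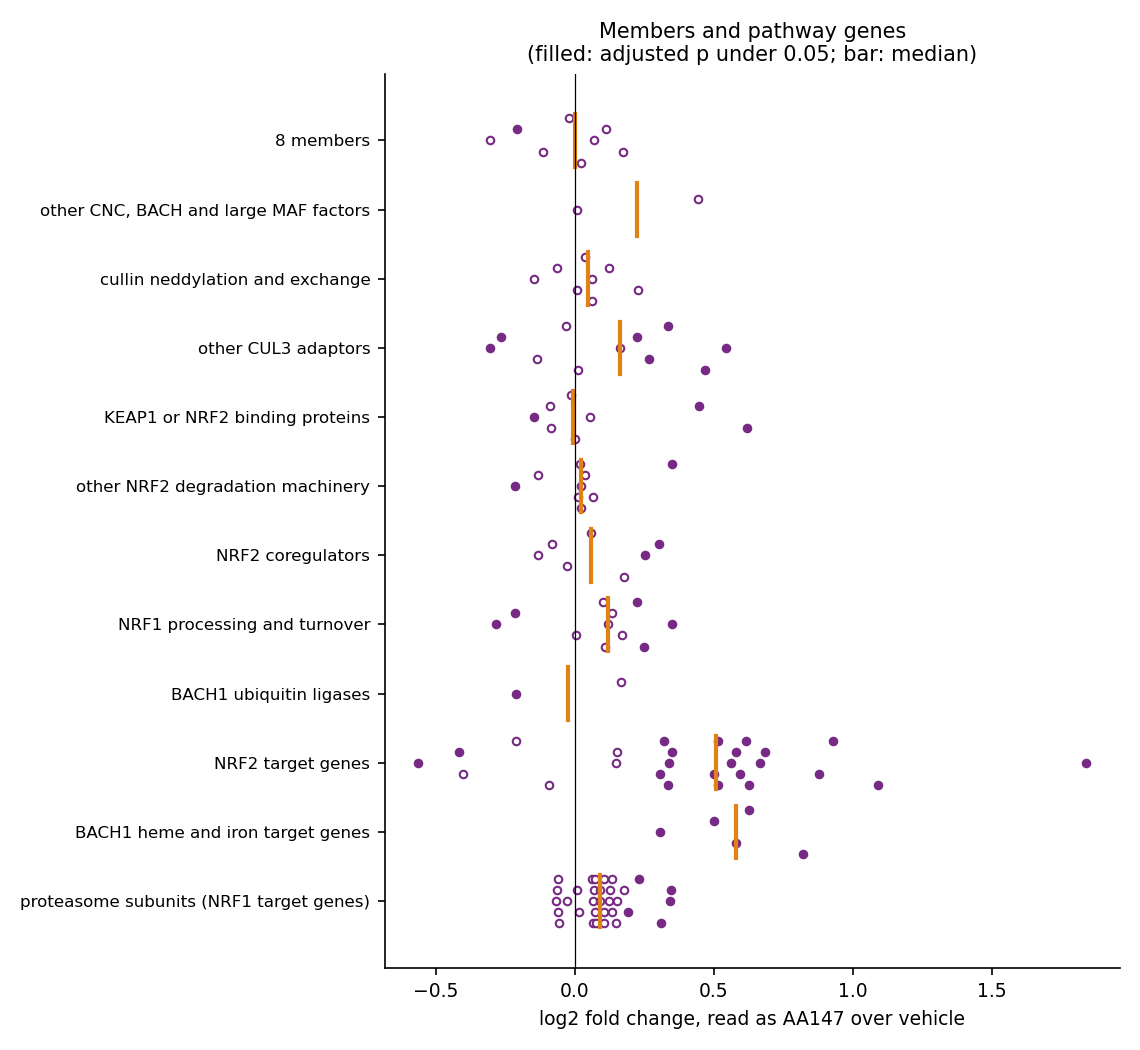
Log2 fold change of the 8 members and of the genes of each pathway list with an adjusted p in the authors' deposited table, where filled points mark an adjusted p under 0.05 and bars mark medians. The members lie between -0.31 and 0.17, while the NRF2 target list has a median of 0.51 and the proteasome list one of 0.09.

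Letters upstream of genes were also set beside the calls. Of the 1610 tested genes with the ARE core in at least 1 window, 10.9% were called higher and 11.1% lower in the authors' deposited table, beside 9.44% and 11.5% of 7977 tested genes with windows that lack it. Of the 26 NRF2 targets, 21 had a window and 8 of these held the core. AREs further than 250 bases before the start lie outside the windows and were not searched. Among the members that hold the core, Nfe2l2 was called lower, and Mafg, Maff and Mafk were not called.

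The labelled cell type was checked against neuronal markers. Of 9, the authors' deposited table gave values for Tubb3 and Syn1, with means of 1199 and 562, and the other 7 were not analysed here. All 4 fibroblast markers were present with means from 181 to 254004, led by the collagen gene Col1a2. All 4 were called lower, by 0.81 to 1.52 on the log2 scale, and their summed level implied by the authors' deposited table was 547557 with vehicle and 246248 with AA147. Astrocyte markers were listed for 2 of 4, oligodendrocyte markers for 2 of 4 and microglial markers for 1 of 4. Called markers of the other types in the authors' deposited table were the astrocyte gene Slc1a3, lower at -1.30 (adjusted p 2.39e-45), the neuronal gene Tubb3, higher at 0.43 (adjusted p 5.67e-05), and the microglial gene Csf1r, higher at 0.95 (adjusted p 0.0278) with a mean of 48.0. The part of any shift in cell state in the change of Nfe2l2 was not tested. Fewer cells of a type and less RNA per cell cannot be told apart in these bulk libraries.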

How the data were processed

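The members were given by name, and they and the pathway lists were chosen with earlier results of these data known. Per the submitters' processing notes, DESeq2 and the mm9 build were used, and the aligner, counter, annotation and read filters are not given in the sources used here. The authors deposited a mean normalized count per gene (a signal, counts divided by size factors), a log2 fold change with its standard error, a score (the Wald statistic), and p-values with Benjamini-Hochberg adjustment. Adjusted p-values exist for 13597 genes, and the other 2875 had means of at most 8.41. Sequencing depth per library is unknown. The means summed to 30768012.

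Intervals are the log2 fold change ± the normal 95% range of its SE. Implied group averages solve the mean and fold change for 3 libraries per group. The smallest absolute statistic that was called, 2.58, gave the smallest change that could be called. Transcript lengths, GC content and exon overlaps came from GENCODE M39 on GRCm39, used without coordinates. Similar transcripts were sought with BLAST 2.17.0. Promoter windows came from RefSeq on GRCm38.p6. No protein sequence was used here. Named genes were the 8 members and, from each list, up to 4 called genes with the largest absolute change (6 for NRF2 targets). Up to 2 uncalled genes with the highest mean were added, with exceptions named. Tkt and Ephx1 are named beyond that rule, as the 2 NRF2 targets called lower. So are Slc7a11, Osgin1 and Sesn2, as the uncalled NRF2 targets with negative values. Only the Benjamini-Hochberg calling was tested on simulated fold changes, drawn with the deposited SEs and planted changes larger than those of any member. The other steps were not tested in this way. Alternatives covered the adjustment, threshold, centring, a length and GC trend and transcript length. Computations ran in Python 3.11.15 with statsmodels 0.14.6, SciPy 1.17.1 and pandas 2.3.3.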

Additional observations from a re-analysis of the deposited data

How the results depend on the processing

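No paired analysis was possible because only 1 line per gene is given, without values per library, and leaving out each replicate was not run for that reason. Of 8 alternatives for the count of called members, 4 kept the count at 1. The count fell to 0 when the adjusted p had to be under 0.01, 0 with Bonferroni, 0 with Benjamini-Yekutieli and 0 with an added limit of 0.25 on the absolute log2 fold change, each stricter by construction. After subtraction of a trend over transcript length, GC content and expression, Nfe2l2 stood at -0.23 (adjusted p 0.0059). For the members' fold changes, a change of adjustment reuses the deposited value and cannot move its direction, and Bonferroni cannot add a call. Centring shifted every value by only 0.0023 or 0.013. Of 40 values under these alternatives and the trend, 38 kept their direction and call, a count largely fixed by such settings. The exceptions were Nfe2l2 with Bonferroni (-0.21, adjusted p 1.0) and Nfe2l1, whose sign turned to 0.0030 when the trend on length, GC content and mean over 9620 genes was subtracted, against an SE of 0.061. Of the 116 pathway genes, which include Nfe2l3 without an adjusted p, 45 were called as deposited, beside 20.2% of all genes tested. With Bonferroni 22 were called. The NRF2 target list alone held 21 of the 45 calls. The level of Mafk was 96.4 per kb with the canonical transcript, beside 56.1 with the longest, and the other 7 members stayed within 1.5-fold. Low expression limits Maff, Mafk, Mafg and Bach1 most.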
